A study of Homo sapiens with 24 samples.

Results

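The genes described here are 9 transcripts reported as targets of the miR-17 family outside the cell cycle: the receptors TGFBR2 and BMPR2, the signal transducers SMAD4 and STAT3, the stress genes TXNIP and TP53INP1, the immune ligand MICA, the endosomal protein ANKFY1 and the helicase-like protein ZNFX1. They were chosen by name, with earlier results of these data known. Every probe annotated to any of these symbols was taken. This gave 16 probes of the 47323 on the array, for 9 of the 20046 symbols the array covers. The question was which of them are recovered with miR-17 and not with miR-638. DU145 is an established human prostate cancer cell line. RNA was recovered from transfected DU145 cells with biotinylated miR-17, biotinylated miR-638 or either of the non-targeting controls NC2 and NC1, with 3 arrays per group. A second experiment profiled total RNA of DU145 cells given the miR-638 mimic, the NC2 mimic or the NC1 mimic, with 4 arrays per group. No miR-17 mimic was among the total RNA groups, and the labels do not name the arm of miR-17. Input RNA of the pulldown cells was not among the groups. A message more abundant in the cells and a message held more by the microRNA therefore cannot be told apart. Separate cultures are not named for the replicates, and the p-values therefore cover the spread among these arrays alone, part or all of which may be technical.

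A microRNA guides an Argonaute protein to messenger RNAs, mostly through pairing between the microRNA's seed, its bases 2 to 8, and the 3′ untranslated region of the message. Bound messages are repressed in translation and often degraded. In the pulldown assay a microRNA carrying biotin is introduced into cells, and the RNA that comes down with it on streptavidin is measured, so that a message held by the microRNA should be brighter than with a control RNA. miR-17 is a member of the miR-17-92 cluster, known as an oncogenic cluster that is raised in many tumours, and several of its reported targets restrain growth signals or respond to stress. miR-638 has another seed and served here as the unrelated microRNA.

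The sequences below show the seed that miR-17 shares with its family and that miR-638 lacks, and they are given 5′ to 3′ from RefSeq with the seed in capitals. The build is GRCh38.p14, where miR-17-5p lies at chr13:91350618-91350640 and miR-638 at chr19:10718419-10718443, both on the plus strand.
hsa-miR-17-5p: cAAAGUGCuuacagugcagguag
hsa-miR-20a-5p: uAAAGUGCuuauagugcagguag
hsa-miR-93-5p: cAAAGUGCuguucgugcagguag
hsa-miR-638: aGGGAUCGcgggcggguggcggccu
Among 2370 mature human microRNAs in RefSeq, 8 carry the seed AAAGUGC, including miR-20a-5p and miR-93-5p shown above, and 1 carries GGGAUCG. The 2 microRNAs also differ in composition, with 47.8% G or C in the 23 bases of miR-17-5p and 80.0% in the 25 bases of miR-638. Target sites in the 9 messages were not analysed here.

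All values are normalized log2 intensities of single probes. The arrays had mean signals of 428 to 629 in the pulldown and 300.0 to 463 in the mimic experiment, and 44.3% to 47.8% and 43.6% to 47.1% of probes were detected (detection p under 0.05). The epithelial markers KRT8, KRT19, EPCAM and CDH1 were detected on all 24 arrays, and KRT18 was detected on 9 of 12 pulldown arrays and 7 of 12 mimic arrays. The luminal prostate genes KLK3, KLK2 and TMPRSS2 were detected on 0 of 12 arrays in either experiment. Of the blood markers CD3E was detected on 0 arrays, PTPRC on 2 pulldown and 1 mimic arrays and HBB on 2 and 2. Of the fibroblast markers COL1A1 was detected on 12 pulldown and 10 mimic arrays and COL1A2 on 11 and 12, and COL3A1 and PDGFRB on 0, while the endothelial PECAM1 was detected on 0 pulldown and 3 mimic arrays. No list other than the epithelial one had all of its members detected, and the part of such cells in the results was not tested. Of the 16 member probes, 15 were tested in each experiment. The sixteenth, 1 of 3 for TGFBR2 (ILMN_1744862), was detected on 2 of 12 pulldown arrays and 0 of 12 mimic arrays. In the authors' second, log2 value table the columns of the 6 control pulldown arrays carry the other control's name. The names of the signal table are used here, and a comparison with both controls together is the same under either naming.

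TXNIP and MICA were the members brighter with miR-17 than with every group it was set beside. With miR-17, TXNIP was 2.33-fold and MICA 1.99-fold brighter than with the controls, and 2.83-fold and 2.20-fold brighter than with miR-638. TP53INP1, by both of its probes, and STAT3, by 1 of its 3 probes, were brighter with miR-17 than with the controls, but their differences from miR-638 did not pass the test. TGFBR2, BMPR2 and SMAD4 passed in no pulldown comparison. ANKFY1, by 1 of its 2 probes, and ZNFX1 were brighter with miR-17 than with miR-638. Both were dimmer with miR-638 than with the controls, and neither passed between miR-17 and the controls.

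In counts, 5 of 15 member probes (4 of 9 genes) were called higher with miR-17 than with both control pulldowns and 0 lower, where 6.60% of all 23742 probes were called higher and 4.73% lower (11.3% in either direction; limma, Benjamini-Hochberg adjusted p under 0.05 over all probes). The median difference was 0.24 over the member probes and 0.00 over all probes. With miR-638 against the same controls, 0 member probes were higher and 2 lower, beside 4.97% and 3.09% of all probes (8.05% in either direction), with a median of -0.06. Between miR-17 and miR-638 directly, 4 member probes were higher with miR-17 and 0 lower, beside 3.79% and 2.60% (6.39% in either direction), with a median of 0.30. TXNIP and MICA, 2 of 15 probes, were higher both than the controls and than miR-638, which held for 618 of all probes (2.60%). By arrays alone, 4 member probes had every miR-17 array above every control array and 0 had every one below (8.19% and 6.63% of all probes), and 9 and 1 stood so against miR-638 (15.7% and 15.6%). With miR-638 0 stood above all control arrays and 3 below (7.22% and 5.62%). Among those 3 was ANKFY1 ILMN_1735364, a dim probe that reached the detection filter only through control arrays. These comparisons share arrays, so their counts are not independent of each other. The genes were chosen with earlier results of these data known, so the counts and medians describe the members and do not test them as a list.

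**Figure D1:**
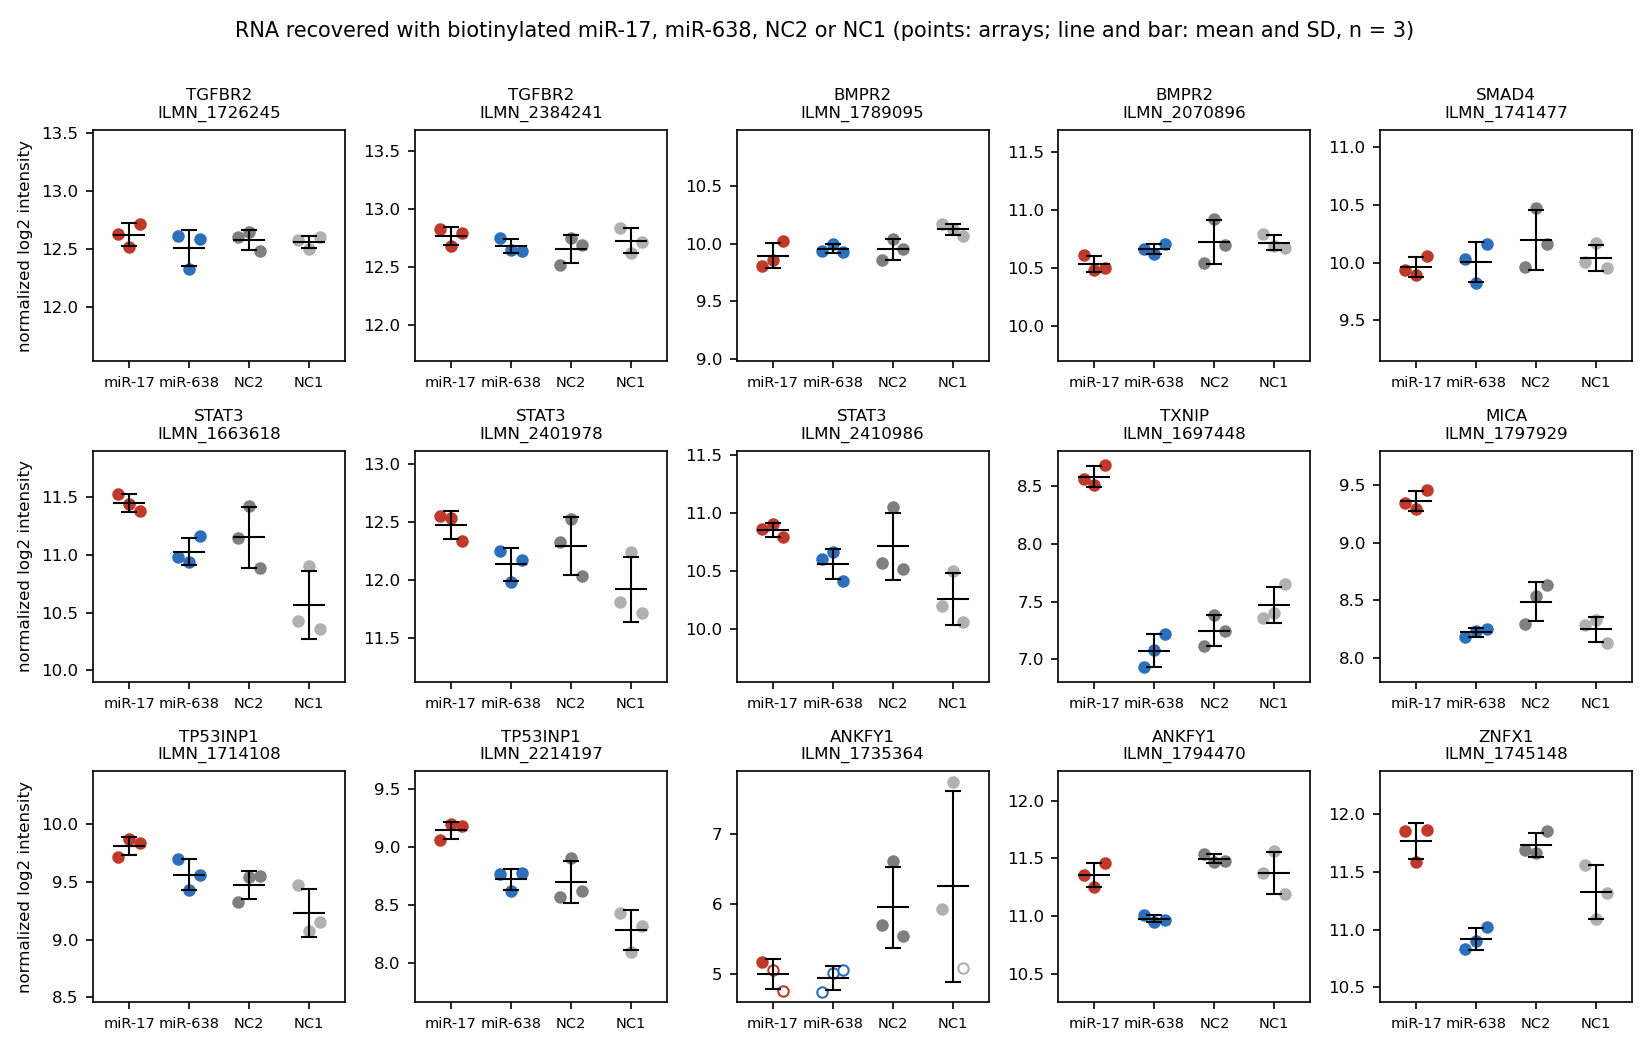
Normalized log2 intensity (y axis; each panel spans at least 2 units) of the 15 tested member probes in the miR-17, miR-638, NC2 and NC1 pulldowns (x axis). Points are arrays, open where the probe was not detected, and the line and bar are the mean and SD of n = 3. The miR-17 arrays stand above all others for TXNIP (8.51 to 8.68) and MICA (9.29 to 9.46), and the miR-638 arrays stand below all others for ZNFX1 (10.83 to 11.02).

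TGFBR2 is the type II receptor that binds TGF-beta and starts its signal. Its probe ILMN_1726245 had 12.63, 12.52 and 12.72 in the miR-17 pulldown, 12.61, 12.33 and 12.59 in the miR-638 pulldown, 12.60, 12.65 and 12.48 with NC2 and 12.58, 12.50 and 12.60 with NC1. All 4 groups overlapped. The difference of miR-17 from both controls was 0.05 (SE 0.08, 95% interval -0.11 to 0.22, adjusted p = 0.743), and that from miR-638 was 0.11 (interval -0.08 to 0.30, adjusted p = 0.594). The other tested probe, ILMN_2384241, differed by 0.08 from the controls (interval -0.08 to 0.23) and by 0.08 from miR-638 (interval -0.10 to 0.26). With both probes above 12 on every pulldown array, TGFBR2 was a bright signal in all of them.

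BMPR2 is the type II receptor for bone morphogenetic proteins, and SMAD4 is the shared partner that carries both TGF-beta and BMP signals to the nucleus. Neither passed the test in a pulldown. BMPR2 differed between miR-17 and the controls by -0.14 (ILMN_1789095, interval -0.30 to 0.02, adjusted p = 0.278) and by -0.19 (ILMN_2070896, interval -0.37 to -0.02, adjusted p = 0.161). On the second of these probes the miR-17 arrays, at 10.61, 10.48 and 10.50, lay below the miR-638 arrays, at 10.66, 10.62 and 10.71, with a difference of -0.14 (interval -0.34 to 0.06, adjusted p = 0.496). SMAD4 had 9.94, 9.89 and 10.06 with miR-17, 10.03, 9.82 and 10.16 with miR-638, 9.96, 10.47 and 10.16 with NC2 and 10.01, 10.17 and 9.95 with NC1. Its difference from the controls was -0.16 (interval -0.39 to 0.08, adjusted p = 0.42) and from miR-638 -0.04 (interval -0.31 to 0.23, adjusted p = 0.924). On all 5 tested probes of TGFBR2, BMPR2 and SMAD4 the miR-17 arrays overlapped the control arrays.

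STAT3 is the transcription factor that carries signals of interleukin 6 and related cytokines. Its probe ILMN_1663618 had 11.53, 11.44 and 11.38 with miR-17, 10.98, 10.94 and 11.16 with miR-638, 11.15, 11.42 and 10.89 with NC2 and 10.43, 10.90 and 10.36 with NC1. The miR-17 arrays lay above all miR-638 and NC1 arrays, and the brightest NC2 array lay among them. Against both controls the difference was 0.59 (SE 0.13, interval 0.32 to 0.86, 1.51-fold, adjusted p = 0.00792), and against miR-638 it was 0.42 (SE 0.15, interval 0.11 to 0.73, adjusted p = 0.117). With miR-638 against the controls it was 0.17 (adjusted p = 0.455).

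The other STAT3 probes gave smaller differences from the controls, 0.37 each (ILMN_2401978, adjusted p = 0.0741; ILMN_2410986, adjusted p = 0.0686). On both, the miR-17 arrays again lay above all miR-638 arrays, with differences of 0.34 (adjusted p = 0.207) and 0.30 (adjusted p = 0.279). The choice of control moved STAT3 more than it moved any other member that was called. Against NC1 alone the 3 probes differed by 0.89, 0.56 and 0.60 (adjusted p = 0.00154, 0.0225 and 0.0138), and against NC2 alone by 0.29, 0.18 and 0.14 (adjusted p = 0.256, 0.503 and 0.62). ILMN_1663618 was itself 0.59 higher with NC2 than with NC1 (SE 0.15, adjusted p = 0.0411), the only member probe called of 15 in that comparison, beside 2.41% of all probes higher and 0.910% lower (3.31% in either direction). That control call was lost without NC1 replicate 1 or 3 (adjusted p = 0.13 and 0.113) or NC2 replicate 1 or 2 (adjusted p = 0.0715 and 0.121), and with the replicate number as a block ILMN_2410986 passed as well (0.46, adjusted p = 0.0294), in a fit that called 2.84% of all probes (2.09% higher and 0.750% lower). Its call against both controls was lost without miR-17 replicate 1 (0.55, adjusted p = 0.0551). Without NC1 replicate 2 the other 2 probes passed (adjusted p = 0.00645 and 0.0139), and so they did without NC2 replicate 2 (adjusted p = 0.0353 and 0.00996).

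TXNIP binds and inhibits thioredoxin, restrains glucose uptake and is induced by cellular stress. Its probe ILMN_1697448 had 8.56, 8.51 and 8.68 in the miR-17 pulldown, 6.93, 7.08 and 7.22 in the miR-638 pulldown, 7.12, 7.38 and 7.25 with NC2 and 7.36, 7.40 and 7.65 with NC1. Every miR-17 array lay above every other pulldown array, and the arrays of the other 3 groups lay between 6.93 and 7.65. The difference from both controls was 1.22 (SE 0.12, interval 0.96 to 1.48, adjusted p = 2.18e-05). The difference from miR-638 was 1.5 (SE 0.14, interval 1.20 to 1.80, adjusted p = 1.47e-05). Ranked by the difference it stood at place 80 of 23742 probes against the controls and place 35 against miR-638. With miR-638 against the controls it was -0.28 (SE 0.12, adjusted p = 0.178). TXNIP was called against the controls in 20 of 20 alternatives, with differences of 1.11 to 1.57.

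MICA is a stress-induced surface ligand that lets natural killer cells and some T cells recognise a damaged or transformed cell through the receptor NKG2D. Its probe ILMN_1797929 had 9.34, 9.29 and 9.46 with miR-17, 8.18, 8.24 and 8.25 with miR-638, 8.30, 8.54 and 8.63 with NC2 and 8.29, 8.33 and 8.13 with NC1. The dimmest miR-17 array was brighter than the brightest array of any other pulldown. The difference was 0.99 from both controls (SE 0.10, interval 0.78 to 1.21, adjusted p = 2.39e-05) and 1.14 from miR-638 (SE 0.12, interval 0.89 to 1.39, adjusted p = 2.99e-05). Against the controls it was called in 19 of 20 alternatives, with differences of 0.87 to 1.11, the exception being the authors' value table (1.01, adjusted p = 0.115). MICB, a close relative of MICA, was also higher with miR-17, by 0.47 against the controls (SE 0.07, adjusted p = 0.000718) and by 0.46 against miR-638 (SE 0.08, adjusted p = 0.00284). The 2 genes are alike in sequence, and hybridisation of one message to the other's probe cannot be told apart from signal of its own.

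TP53INP1 is a p53-induced protein with roles in cell death and autophagy, and both of its probes were brighter with miR-17 than with the controls. ILMN_2214197 had 9.06, 9.20 and 9.18 with miR-17, 8.77, 8.62 and 8.78 with miR-638, 8.57, 8.91 and 8.62 with NC2 and 8.43, 8.09 and 8.32 with NC1. ILMN_1714108 had 9.72, 9.87 and 9.84 with miR-17, 9.70, 9.43 and 9.56 with miR-638, 9.33, 9.54 and 9.55 with NC2 and 9.47, 9.08 and 9.15 with NC1. On both probes all 3 miR-17 arrays lay above all arrays of the other groups.

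Against both controls the TP53INP1 differences were 0.65 (ILMN_2214197, SE 0.11, interval 0.42 to 0.89, 1.57-fold, adjusted p = 0.00135) and 0.45 (ILMN_1714108, SE 0.10, interval 0.23 to 0.67, 1.37-fold, adjusted p = 0.011). Against miR-638 they were 0.42 (SE 0.12, interval 0.16 to 0.69, adjusted p = 0.0623) and 0.25 (SE 0.12, interval -0.01 to 0.50, adjusted p = 0.295), neither past the threshold. The miR-638 pulldown itself was 0.23 and 0.21 above the controls (adjusted p = 0.207 and 0.235). Against NC2 alone ILMN_2214197 still passed (0.45, adjusted p = 0.0417) and ILMN_1714108 did not (0.33, adjusted p = 0.11). ILMN_1714108 was also lost without miR-17 replicate 2 (0.43, adjusted p = 0.0656) or replicate 3 (0.44, adjusted p = 0.0598).

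**Figure D2:**
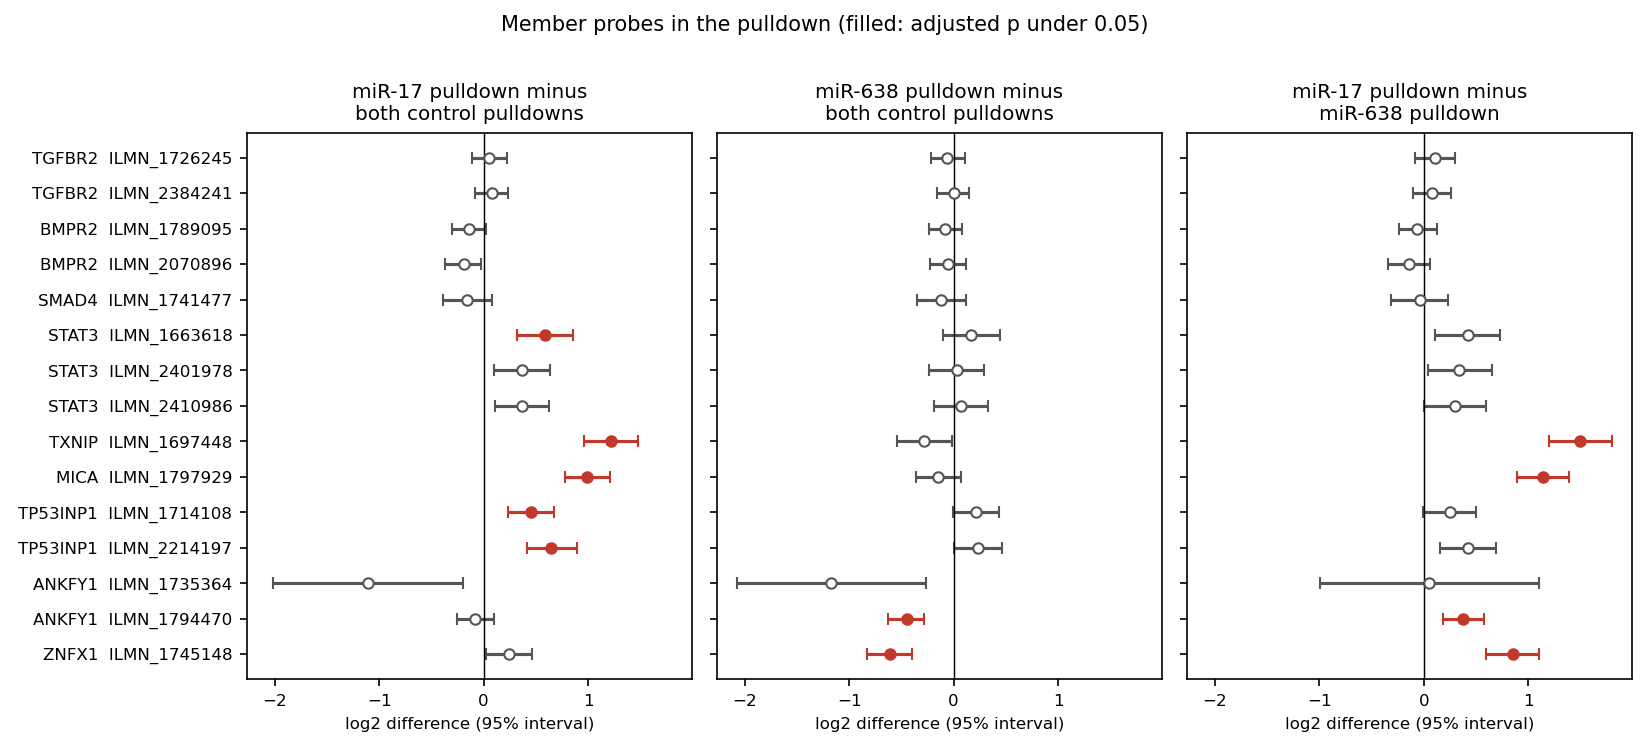
Log2 difference (x axis) of each tested member probe (y axis) for miR-17 minus both controls, miR-638 minus both controls and miR-17 minus miR-638 in the pulldown. Points are fitted differences, bars their 95% intervals, and filled points passed the adjusted p. TXNIP (1.22 and 1.5) and MICA (0.99 and 1.14) passed against both the controls and miR-638, and ZNFX1 (-0.61) and ANKFY1 (-0.45) were lower with miR-638 than with the controls.

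ZNFX1 is a helicase-like protein of RNA surveillance and antiviral defence. Its probe ILMN_1745148 had 11.85, 11.59 and 11.86 with miR-17, 10.83, 10.90 and 11.02 with miR-638, 11.69, 11.66 and 11.85 with NC2 and 11.56, 11.09 and 11.32 with NC1. The miR-17 arrays overlapped the NC2 arrays and lay above the NC1 arrays, and the miR-638 arrays lay below all others. It was 0.85 higher with miR-17 than with miR-638 (SE 0.12, interval 0.60 to 1.10, 1.81-fold, adjusted p = 0.000404), and 0.24 from both controls (SE 0.10, interval 0.02 to 0.46, adjusted p = 0.153). With miR-638 it was 0.61 lower than the controls (log2 difference -0.61, SE 0.10, adjusted p = 0.0021). The control used decided the miR-17 value, which was 0.45 against NC1 alone (adjusted p = 0.0237) and 0.03 against NC2 alone (adjusted p = 0.908).

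ANKFY1, also called Rabankyrin-5, is an effector of the small GTPase RAB5 on early endosomes. Its bright probe ILMN_1794470 had 11.36, 11.25 and 11.46 with miR-17, 11.01, 10.95 and 10.97 with miR-638, 11.54, 11.47 and 11.48 with NC2 and 11.37, 11.56 and 11.19 with NC1. The miR-17 arrays lay within the range of the controls, and the miR-638 arrays lay below all of them. The difference was -0.08 for miR-17 against the controls (interval -0.25 to 0.10, adjusted p = 0.617), -0.45 for miR-638 against the controls (SE 0.08, adjusted p = 0.00351) and 0.38 for miR-17 against miR-638 (SE 0.09, adjusted p = 0.0268). The last of these was lost on leaving out any 1 of the 6 arrays compared other than miR-17 replicate 2 (adjusted p = 0.0759 to 0.127).

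A second ANKFY1 probe, ILMN_1735364, was dim. It was detected on 1 of 3 miR-17 arrays (5.17, 5.06 and 4.75), on 0 of 3 miR-638 arrays (4.74, 5.01 and 5.06), on 3 of 3 NC2 arrays (5.70, 6.62 and 5.54) and on 2 of 3 NC1 arrays (5.93, 7.75 and 5.08). The spread between NC1 arrays exceeded that in the other groups. Its differences from the controls were -1.11 with miR-17 (SE 0.42, adjusted p = 0.114) and -1.17 with miR-638 (SE 0.42, adjusted p = 0.108). Without NC1 replicate 3, the control array that did not detect it (5.08), both passed (-1.40, adjusted p = 0.0187, and -1.46, adjusted p = 0.0213). The probe reached the detection filter only through control arrays. A lower value with either microRNA was thus favoured in advance, and these differences cannot be read as a result.

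Pathway partners of the 9 genes were counted by 1 probe each, that of highest mean, with adjusted p over all probes. Over all genes counted so, 7.59% were higher and 5.35% lower with miR-17 than with the controls, and 4.64% and 2.92% were higher and lower with miR-17 than with miR-638. Of 24 measured TGF-beta and BMP pathway genes, 3 rose with miR-17 against the controls and 0 fell (median 0.06). The type I receptor ACVR1 was 0.60 higher (SE 0.09, adjusted p = 0.000981), the BMP-induced inhibitor ID2 0.50 higher (SE 0.10, adjusted p = 0.0046) and the co-receptor TGFBR3 0.72 higher (SE 0.17, adjusted p = 0.013). ACVR1 (0.71, adjusted p = 0.00104) and ID2 (0.46, adjusted p = 0.0259) also passed against miR-638, and TGFBR3 did not (0.64, adjusted p = 0.0707). The other ID2 probe passed neither against the controls (0.29, adjusted p = 0.117) nor against miR-638 (0.13, adjusted p = 0.668). Against NC2 alone TGFBR3 did not pass either (0.36, adjusted p = 0.299), nor without miR-17 replicate 2 (adjusted p = 0.0864) or replicate 3 (adjusted p = 0.0647).

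Among 16 measured JAK-STAT3 genes 0 rose and 2 fell with miR-17 (median -0.11), both of them cytokines. IL6 differed by -0.92 (SE 0.14, adjusted p = 0.000685) and LIF by -0.54 (SE 0.10, adjusted p = 0.00328). The shared receptor chain IL6ST differed by -0.31 from the controls (adjusted p = 0.0545) and by -0.52 from miR-638 (adjusted p = 0.0125), and its other probe by -0.26 and -0.45 (adjusted p = 0.632 and 0.517). IL6 also differed from miR-638, by -0.75 (adjusted p = 0.0107). LIF did not pass against miR-638 (-0.27, adjusted p = 0.222) or against NC2 alone (-0.38, adjusted p = 0.0643).

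Of 12 measured genes of the thioredoxin system and the alpha-arrestins, the family of TXNIP, 1 rose and 0 fell (median 0.18). That gene was ARRDC3, an adaptor for ubiquitination of membrane receptors, at 0.61 above the controls (SE 0.13, adjusted p = 0.00921) and 1.03 above miR-638 (adjusted p = 0.000806). ARRDC1 and MLX, which completes the glucose-sensing pair that drives TXNIP, differed by 0.32 and 0.33 (adjusted p = 0.188 and 0.208). ARRDC1 was 0.82 higher with miR-638 than with the controls (adjusted p = 0.00329), and miR-17 minus miR-638 was -0.5 (adjusted p = 0.101). Of 14 p53 stress genes 0 rose and 1 fell (median -0.08). SESN1, a stress-induced inhibitor of growth signalling, differed by 0.44 from the controls (adjusted p = 0.0512) and by 0.59 from miR-638 (adjusted p = 0.0372), and XPC, a DNA damage sensor, by -0.32 from the controls (adjusted p = 0.0541) and -0.07 from miR-638 (adjusted p = 0.831). The gene that fell, ZMAT3, an RNA-binding p53 target, differed by -1.20 (SE 0.28, adjusted p = 0.012), but its 3 probes ran from -1.20 to 0.22. It did not pass without miR-17 replicate 1 or 3 (-1.18 each, adjusted p = 0.0611 and 0.06). With miR-638 the same ZMAT3 probe differed by -0.95 from the controls (adjusted p = 0.0502), and miR-17 minus miR-638 was -0.26 (adjusted p = 0.759). ARRDC3 did not pass without miR-17 replicate 2 or 3 (0.56 and 0.55, adjusted p = 0.0615 and 0.0652).

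NKG2D ligands and MHC class I genes split, with 2 of 8 higher with miR-17 and 4 lower (median -0.12). MICB was among the higher ones, and B2M, the light chain of MHC class I, and HLA-B were among the lower ones, at -0.43 (adjusted p = 0.00118) and -0.46 (adjusted p = 0.00291). With miR-638 both were lower to a like degree, at -0.46 (adjusted p = 0.00115) and -0.45 (adjusted p = 0.00479), and miR-17 minus miR-638 was 0.03 and -0.01 (adjusted p = 0.911 and 0.978). The other B2M probe differed by -0.10 from the controls (adjusted p = 0.422). B2M and HLA-B were also 0.47 and 0.51 higher with NC2 than with NC1, and against NC1 alone their miR-17 differences were -0.20 each (adjusted p = 0.142 and 0.213). Of 16 genes of the RAB5 early endosome 3 rose and 0 fell (median 0.06). WDFY1, a protein of early endosomes, was 0.40 higher (adjusted p = 0.0127), but 0.10 against NC2 alone (adjusted p = 0.658). WDFY1 was also 0.42 higher with miR-638 than with the controls (adjusted p = 0.0151), and miR-17 minus miR-638 was -0.01 (adjusted p = 0.974). RAB5B and RAB5C, forms of the GTPase RAB5, were 0.86 higher (SE 0.13, adjusted p = 0.000901) and 0.58 higher (adjusted p = 0.00133), and RAB5B was 0.73 higher than with miR-638 (adjusted p = 0.0104). RAB5C did not pass against miR-638 (0.34, adjusted p = 0.0865), and its other probe differed by 0.74 from the controls (adjusted p = 0.232) and -0.04 from miR-638.

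RNA-sensing and interferon-induced genes, the company of ZNFX1, differed between the pulldowns, the controls included. Of 18 measured, 14 were lower and 2 higher with miR-17 than with both controls (median -0.78), and 14 were lower and 0 higher with miR-638 (median -1.12). Over all genes counted so, 5.66% were higher and 3.80% lower with miR-638. Of the same 18, 14 were higher with NC2 than with NC1 (median 1.07), where 2.73% of all genes were higher and 1.31% lower. MX1, an antiviral GTPase, differed by -1.55 with miR-17 (adjusted p = 9.95e-08), IFI27 by -1.61 (adjusted p = 1.38e-05) and the RNA sensor OAS3 by -0.87 (adjusted p = 1.92e-05). Against NC1 alone the 3 values were -0.73, -0.61 and -0.34 (adjusted p = 0.000427, 0.0374 and 0.0417), and against NC2 alone -2.37, -2.61 and -1.41. MX1, IFI27 and OAS3 were also lower with miR-638, at -1.79, -2.06 and -1.11, and none of the 3 passed between miR-17 and miR-638 (0.24, 0.45 and 0.24, adjusted p = 0.22, 0.169 and 0.206). The part of these genes in the ZNFX1, B2M and HLA-B values was not tested.

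Of 17 other genes written down from general knowledge as miR-17 family targets, without checking each report, 4 rose and 5 fell with miR-17 (median -0.10). TNFSF12, the cytokine TWEAK, was 1.34 higher (SE 0.11, adjusted p = 4.3e-06) and 1.06 higher than with miR-638 (adjusted p = 0.000143), although its other probe differed by 0.14. The kinase MAPK9 and the angiogenic factor VEGFA were lower, at -0.53 (adjusted p = 0.00241) and -0.36 (adjusted p = 0.00377). The other MAPK9 probe differed by -0.18 (adjusted p = 0.493), while MAPK9 also differed from miR-638 on the first (-0.42, adjusted p = 0.0337). VEGFA was lower with miR-638 as well (-0.27, adjusted p = 0.0288), and miR-17 minus miR-638 was -0.09 (adjusted p = 0.616). Among the calls against miR-638, those of ID2 and MAPK9 were lost without any 1 of the 6 arrays, that of SESN1 without any but miR-638 replicate 1, that of IL6 without miR-638 replicate 1 or 2 or miR-17 replicate 1, that of IL6ST without miR-638 replicate 1 or 3 or miR-17 replicate 1 or 2, and that of RAB5B without miR-638 replicate 3 or miR-17 replicate 2. The adjusted p then ran from 0.051 to 0.174.

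**Figure D3:**
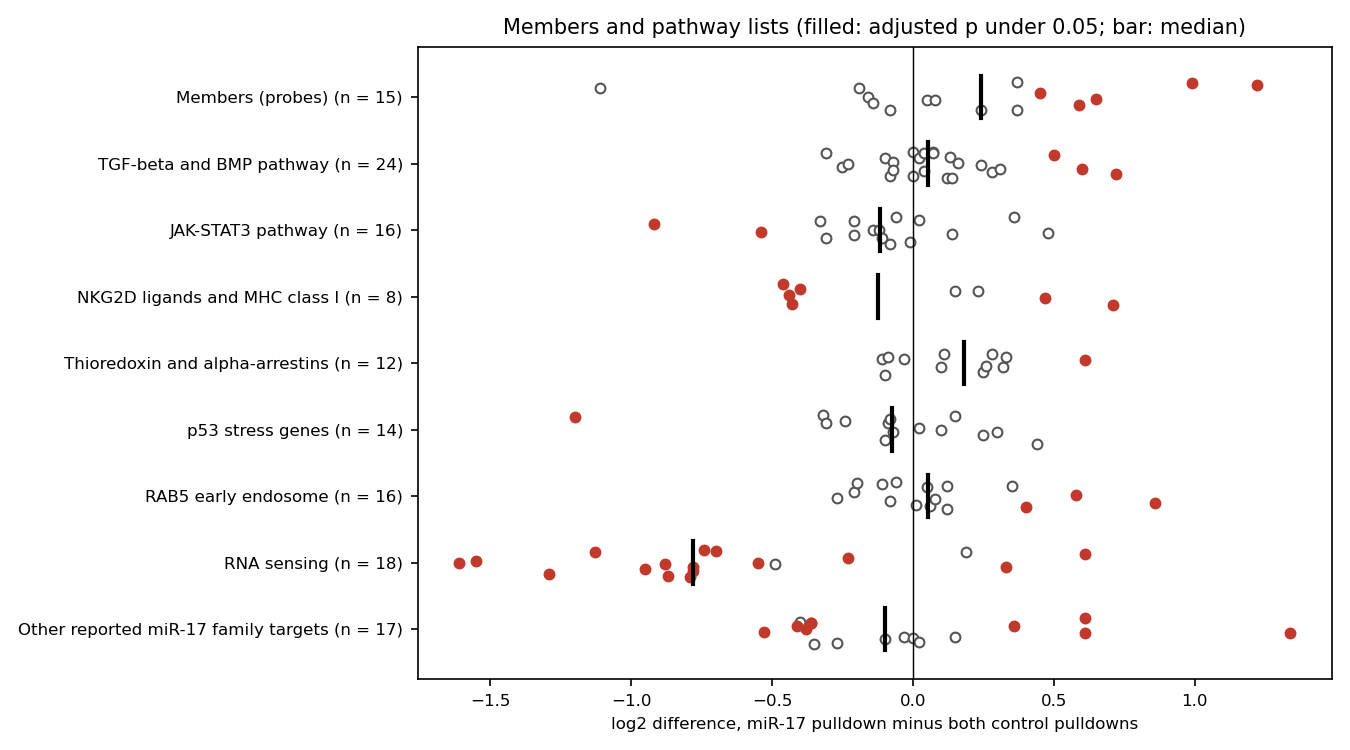
Log2 difference of the miR-17 pulldown from both control pulldowns (x axis) for the 15 member probes and for each measured gene of the 8 lists (y axis), by its probe of highest mean. Filled points had an adjusted p under 0.05, and the bar in each row is its median. The RNA-sensing list lies lowest, with a median of -0.78, the other 7 list medians lie between -0.12 and 0.18, and that of the member probes is 0.24.

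In total RNA the question was whether the same transcripts changed after the miR-638 mimic. Of 15 member probes 2 were higher and 0 lower than with both control mimics, beside 1.36% and 0.939% of all 22469 probes (2.30% in either direction), and the median was 0.00. Both were TP53INP1 probes. With the replicate number as a block 7 passed, 5 of them higher and 2 lower, but that fit also called 14.6% of all probes (7.75% higher and 6.85% lower). In RNA of whole cultures, fewer cells holding a message and less of it per cell cannot be told apart. Between the controls, NC2 mimic against NC1 mimic, 0 member probes were higher and 8 lower, beside 3.69% and 3.94% (7.63% in either direction), with a median of -0.41. Those 8 were all tested probes of STAT3, TGFBR2 and TP53INP1 and 1 of ANKFY1, and on each of them every NC2 array lay below every NC1 array (7.17% of all probes).

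TP53INP1 on ILMN_2214197 had 8.14, 8.04, 8.07 and 8.0 with the miR-638 mimic, 6.93, 6.65, 6.76 and 6.63 with the NC2 mimic and 8.02, 8.04, 7.90 and 7.70 with the NC1 mimic. The miR-638 and NC1 arrays overlapped and the NC2 arrays stood apart below them. Against both controls the difference was 0.74 (SE 0.09, adjusted p = 0.00146), against NC2 alone 1.32 (adjusted p = 2.86e-05) and against NC1 alone 0.15 (adjusted p = 0.735). NC2 differed from NC1 by -1.17 (SE 0.11, adjusted p = 3.81e-05). The other probe, ILMN_1714108, gave 0.68 against both (SE 0.10, adjusted p = 0.0038), 1.22 against NC2 alone (adjusted p = 7.8e-05), 0.14 against NC1 alone (adjusted p = 0.806) and -1.09 for NC2 against NC1 (SE 0.12, adjusted p = 0.000111).

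STAT3 had the same order on ILMN_2401978, with 11.20, 11.30, 11.67 and 11.58 for miR-638, 10.56, 10.46, 10.87 and 10.72 for NC2 and 11.22, 11.20, 11.53 and 11.53 for NC1. Here too the NC2 arrays lay below all others. NC2 differed from NC1 by -0.66, -0.71 and -0.74 on the 3 probes (ILMN_1663618, ILMN_2401978 and ILMN_2410986, adjusted p = 0.0348, 0.00447 and 0.018). Without NC1 replicate 3 or 4 or NC2 replicate 1 or 2, ILMN_1663618 (adjusted p = 0.0871 to 0.102) and ILMN_2410986 (0.052 to 0.0586) did not pass, nor did ILMN_1663618 without NC1 replicate 1 (0.0602). Against both controls miR-638 gave 0.28, 0.43 and 0.44 (adjusted p = 0.479, 0.0699 and 0.176), which passed once the replicate number was a block (adjusted p = 0.00146, 4.72e-06 and 2.02e-05). Within replicates 1 and 2 the values were 0.32, 0.39 and 0.46 (adjusted p = 0.0149, 0.000974 and 0.00128), and within replicates 3 and 4 they were 0.24, 0.46 and 0.42 (adjusted p = 0.0875, 0.000486 and 0.0037). Against NC1 alone ILMN_2401978 and ILMN_2410986 differed by 0.07 each (adjusted p = 0.948 and 0.968).

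**Figure D4:**
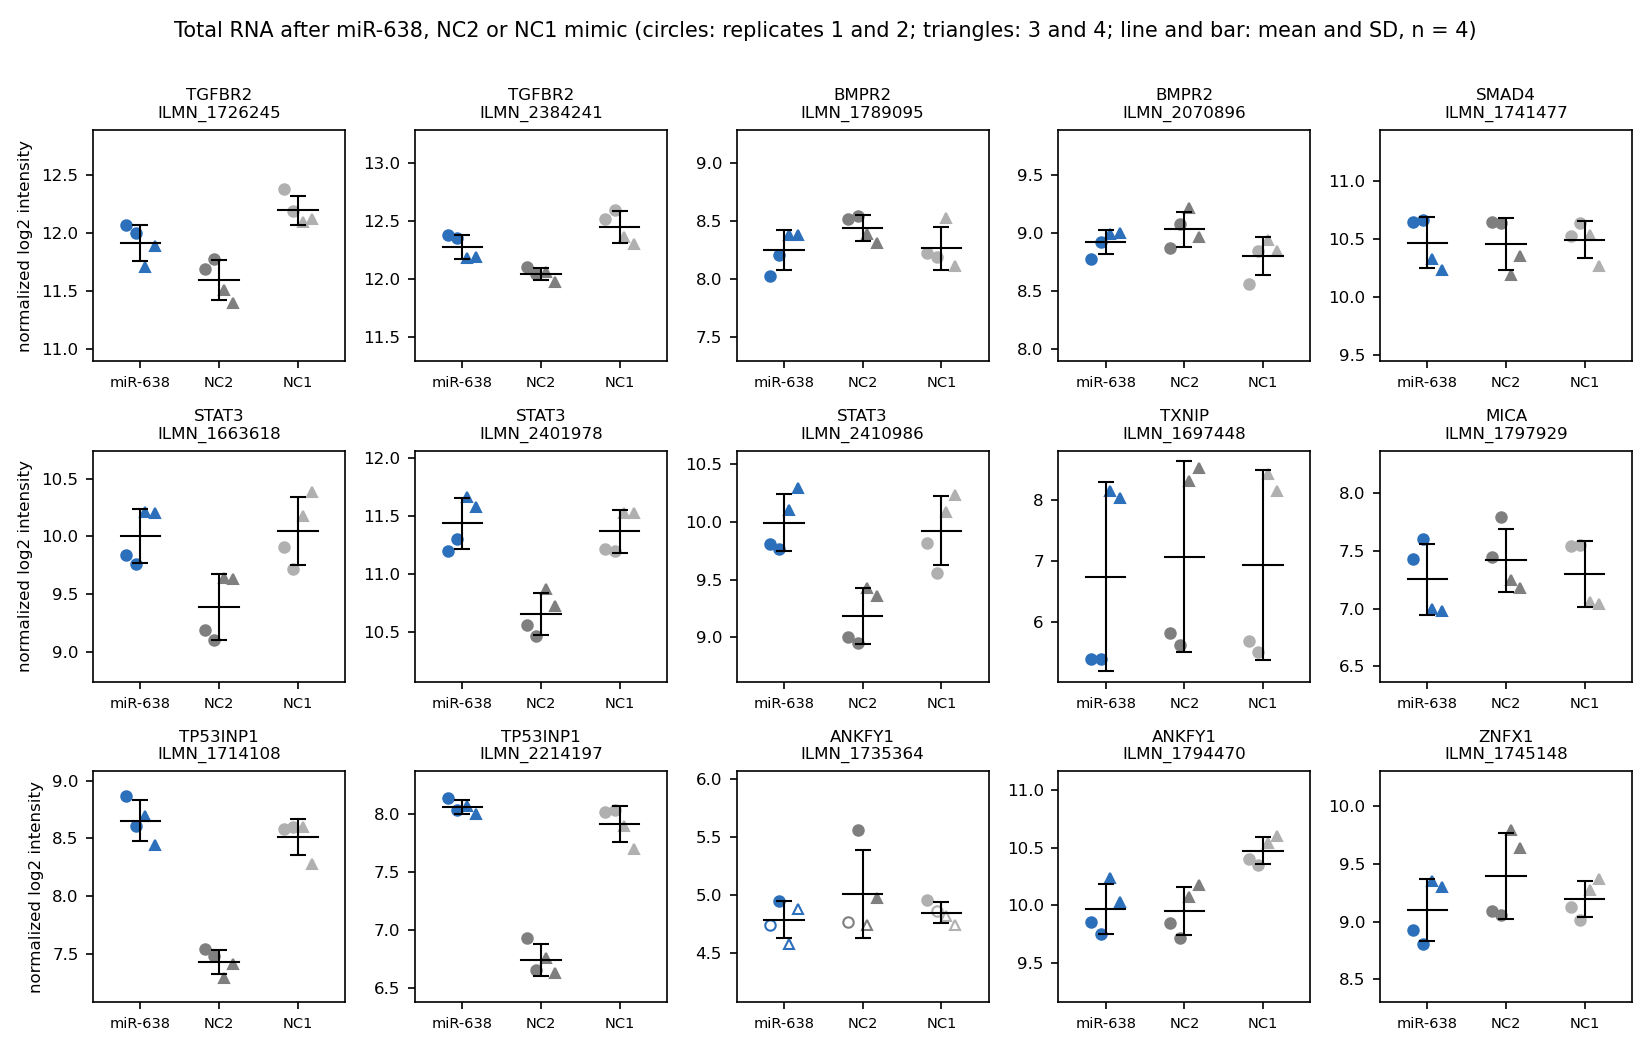
Normalized log2 intensity (y axis; each panel spans at least 2 units) of the 15 tested member probes with the miR-638, NC2 and NC1 mimics (x axis). Circles are replicates 1 and 2, triangles replicates 3 and 4, and the line and bar are the mean and SD of n = 4. For TP53INP1 and STAT3 the NC2 arrays lie lowest, and for TXNIP replicates 3 and 4 (8.04 to 8.54) stand above replicates 1 and 2 (5.39 to 5.82) in all 3 groups.

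TGFBR2 in total RNA differed by 0.02 and 0.03 between the miR-638 mimic and both controls (adjusted p = 0.973 and 0.925), and by -0.60 and -0.41 between NC2 and NC1 (ILMN_1726245 and ILMN_2384241, adjusted p = 0.00336 and 0.0071). ANKFY1 on ILMN_1794470 differed by -0.24 with miR-638 (SE 0.11, adjusted p = 0.351; with the replicate block 0.00664) and by -0.52 for NC2 against NC1 (SE 0.13, adjusted p = 0.025), which did not pass without NC1 replicate 1, 3 or 4 or NC2 replicate 1 or 2 (adjusted p = 0.0515 to 0.0746). Its miR-638 arrays, at 9.86, 9.75, 10.24 and 10.03, overlapped the NC2 arrays, at 9.85, 9.72, 10.07 and 10.18, and lay below the NC1 arrays, at 10.40, 10.35, 10.54 and 10.60. BMPR2 differed by -0.10 and 0.00 and SMAD4 by 0.00 between the miR-638 mimic and both controls, none past the test. Between NC2 and NC1, BMPR2 differed by 0.18 on ILMN_1789095 (adjusted p = 0.442) and by 0.23 on ILMN_2070896 (adjusted p = 0.244). The second was called with the replicate block (adjusted p = 0.0208), a fit that called 9 member probes, 1 higher and 8 lower, and 27.0% of all probes (13.3% higher and 13.7% lower). The first was called within replicates 1 and 2 (0.32, adjusted p = 0.0459) and not within replicates 3 and 4 (0.04, adjusted p = 0.899).

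In every mimic group replicates 1 and 2 stood apart from replicates 3 and 4, and 3 members differed between these pairs without overlap. TXNIP had 5.39, 5.39, 8.16 and 8.04 with miR-638, 5.82, 5.62, 8.32 and 8.54 with NC2 and 5.68, 5.50, 8.44 and 8.15 with NC1, so that replicates 3 and 4 averaged 2.71 above replicates 1 and 2. It was detected on all 12 arrays but dim in replicates 1 and 2, with raw intensities of 25.4 to 40.8, so this shift and the differences within that pair rest on weak signals. ZNFX1 was 0.45 higher and MICA 0.47 lower in replicates 3 and 4 (log2 difference -0.47 for MICA). TXNIP, the member with the largest miR-17 difference in the pulldown, differed by -0.27 between the miR-638 mimic and both controls (SE 0.81, adjusted p = 0.957). It differed by -0.27 within replicates 1 and 2 (adjusted p = 0.325) and by -0.26 within replicates 3 and 4 (adjusted p = 0.188). The SE of 0.81 holds the split between the pairs of replicates, and with the replicate number as a block the adjusted p of TXNIP was 0.0469. MICA differed by -0.10 and ZNFX1 by -0.20 (adjusted p = 0.897 and 0.7). Each was called in 0 of 25 alternatives, the replicate block among them, with lowest adjusted p of 0.45 and 0.0615. Between NC2 and NC1, ZNFX1 differed by 0.20 (adjusted p = 0.596) and was called in 1 of 19 alternatives (adjusted p = 0.00695), which ran from 0.01 to 0.40. This ZNFX1 difference was 0.39 larger in replicates 3 and 4 than in replicates 1 and 2 (limma, unadjusted p = 0.00851, adjusted p = 0.295).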

How the data were processed

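The non-normalized signal table deposited by the authors holds an intensity and a detection p-value per probe for 24 Illumina arrays, while the study's description names another array maker. The deposited value table holds log2 values with a floor of 4, which gave an alternative; neither its scaling nor its centring is given in the sources used here, and the median of each of its 24 columns is 4. For all 6 control pulldown arrays its columns match best the signal columns of the other control. No pair of arrays held identical values, and 0 columns were left unused.

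Each experiment was normalized apart with neqc (background from the detection p-value, offset 16) in limma 3.58.1 (R 4.3.3). A probe was tested if at least 3 of 12 pulldown or 4 of 12 mimic arrays detected it (detection p under 0.05), 23742 and 22469 in all. Group means were fitted with lmFit and eBayes (trend), two-sided, with Benjamini-Hochberg adjustment over all tested probes and calls at 0.05, and the script was tested on simulated data. Intervals are 95%. The number of arrays limits the precision. Symbols came from the platform annotation, with 30113 probes of 1 symbol, 8 of several and 17202 not listed. Figures were drawn with matplotlib 3.10.9.

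The 9 genes and the 8 lists were chosen with earlier results of these data known. From each list the 3 genes of smallest p in the miR-17 comparison are named, and the 3 probes most like the most changed member. Alternatives were median scaling, the authors' values, other filters, array weights, each control alone, blocks and arrays left out.

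Same-numbered mimic arrays deviated together (residual correlation 0.60 to 0.70), but so did arrays of different number within replicates 1 and 2 or 3 and 4 (0.60 to 0.67). The correlation does not tell a pairing by number from that split, which a block by number also takes out. In the pulldown the correlations of same-numbered arrays ran from -0.34 to 0.59, and those of different number from -0.54 to 0.41. Between the NC2 and NC1 pulldowns the 3 of same number were 0.13, 0.59 and 0.43, and the others ran from -0.54 to 0.41.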

Additional observations from a re-analysis of the deposited data

Results flagged for a closer look

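One TP53INP1 array stood apart from its group. On ILMN_1714108 the NC1 mimic replicate 4 had 8.28, and the other 3 arrays had 8.58 to 8.60. It was the only such array among 48 groups of 4 checked, where chance gives about 1 in 20.

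The controls differed in opposite directions in the 2 experiments on every tested probe of STAT3 and TP53INP1. A probe of each gene was flagged because the NC2 and NC1 arrays overlapped in neither experiment. On STAT3 ILMN_2410986 NC2 minus NC1 was 0.46 in pulldown RNA, with an adjusted p of 0.1 from limma (0.0294 with the replicate block), and -0.74 in total RNA. On TP53INP1 ILMN_2214197 it was 0.42 in pulldown RNA (adjusted p = 0.0937 from limma) and -1.17 in total RNA. The other probes overlapped in pulldown RNA. Of these, STAT3 ILMN_1663618 was called in both experiments, at 0.59 and -0.66 (limma adjusted p = 0.0411 and 0.0348). STAT3 ILMN_2401978 had 0.37 and -0.71, and TP53INP1 ILMN_1714108 had 0.24 and -1.09. The differences between the experiments were not tested, and the pulldown direction turns with the control names, which the authors' value table exchanges.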

How the results depend on the processing

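Counts of called member probes depended on the setting. For miR-17 against the controls the count was 5 and became 2 with median scaling, 1 with the authors' values, 3 with 1 probe per gene, 8 with array weights, 3 against NC2 alone and 8 against NC1 alone, and 4 to 7 with 1 array left out. For miR-638 against the controls it was 2, with the authors' values 0, and 2 to 3 with 1 array left out. For miR-17 against miR-638 it was 4, with the authors' values 0, with array weights 8, fitting only these groups 8, and 3 to 4 with 1 array left out. Between the NC2 and NC1 pulldowns it was 1, became 0 with median scaling, the authors' values, 1 probe per gene or only these groups, 2 with array weights and 2 with the replicate block, and 0 to 3 with 1 array left out. For the miR-638 mimic it was 2, with 1 probe per gene 1, against NC2 alone 4, against NC1 alone 0, within replicates 1 and 2 it was 6, within replicates 3 and 4 it was 4, and with the replicate block 7. Between the NC2 and NC1 mimics it was 8, with the authors' values 5, with 1 probe per gene 4, and 5 to 8 with 1 array left out. Over all probes the counts were 2690, 1912, 1518, 787, 517 and 1715, in the same order. With all arrays of a setting kept, they ranged over 285 to 4038, 136 to 3242, 187 to 3690, 6 to 879, 235 to 3280 and 1075 to 6074. With 1 array left out they ranged over 1319 to 3140, 746 to 2301, 824 to 918, 390 to 1084, 199 to 424 and 1006 to 1413. The causes were not tested, and some settings hold fewer probes or arrays.

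With the authors' values, the called miR-638 difference of ARRDC1 went to 0.00 and that of VEGFA turned sign (0.11, against -0.27). For NC2 against NC1 in the pulldown, where that table exchanges the control names, 13 of 15 member probes turned sign, and among called differences of members and named genes those of STAT3 ILMN_1663618 (-0.60), B2M (-0.36), HLA-B (-0.15), WDFY1 (-0.73), MX1 (-1.26), IFI27 (-2.21) and OAS3 (-1.32) did. Median scaling ended the STAT3 call (0.56, limma adjusted p = 0.0783), both TP53INP1 calls (0.40 and 0.59, adjusted p = 0.201 and 0.0632) and the ANKFY1 call against miR-638 (0.44, adjusted p = 0.163). The authors' values ended every member call in the pulldown but that of TXNIP against the controls, with TXNIP at 1.60 (adjusted p = 0.061), MICA at 1.22 (adjusted p = 0.131) and ZNFX1 at 1.12 (adjusted p = 0.222) against miR-638. In the pulldown the replicate block added STAT3 ILMN_2401978 and ILMN_2410986 to the miR-17 calls (adjusted p = 0.0462 and 0.0167). Of the list counts, 662 stayed within 1.5 times and 250 moved. Low signal limits ILMN_1735364, ILMN_1744862 and, in mimic replicates 1 and 2, TXNIP.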

Other observations

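The probes whose values ran most like those of TXNIP over the 12 pulldown arrays were NABP1, a single-stranded DNA binding protein (Pearson r = 0.981), VPS26A, a subunit of the retromer that recycles cargo from endosomes (r = 0.980), and E2F5, a repressive transcription factor of the cell cycle (r = 0.979). The 12 arrays fall into 4 groups, so these correlations mostly follow the group means, and they are a description. They were chosen for following TXNIP, so their higher values with miR-17 (2.16, 0.85 and 0.92 above the controls) are part of that choice.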
